A study of Mus with 2 samples.

Results

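A set of 10 regulators of nephron progenitors was followed through the cells of newborn mouse kidneys: Six2, Cited1, Osr1, Eya1, Meox1, Sall1, Pax2, Pax8, Wt1 and Lhx1. They were chosen by symbol and make up 10 of the 28693 features counted, and all 10 were found. Nephrons arise from a cap of mesenchymal cells around each tip of the branching ureteric bud. Cap cells either renew themselves or turn into an epithelial vesicle, which is then patterned into podocytes, proximal tubule, loop of Henle and distal tubule. Six2, Cited1, Osr1, Eya1 and Meox1 are best known from the self-renewing cap, Sall1, Pax2 and Wt1 act there and in later structures, and Pax8 and Lhx1 are known from the vesicle onwards.

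RNA was counted in single cells of kidneys collected at postnatal day 0 from mice carrying Rbpj c/- ; Foxd1cre/+. Rbpj is the DNA-binding partner of Notch receptors, and Foxd1Cre drives recombination in the stromal lineage. The cells that make nephrons are therefore not the intended target of the Cre deletion. By usual notation the - in the genotype is a null allele carried by all cells. Cells of the nephron lineage are then not wild type for Rbpj either. Both libraries (replicates 1 and 2) are mutant. Control kidneys were not analysed here, so every comparison below is between cell classes of mutant kidneys and none measures the effect of the deletion. With library as a block, p-values rest on how far differences between classes varied between these 2 libraries, pooled over the classes fitted. Whether each library came from 1 animal or from pooled kidneys was not given, so the spread between animals is not known.

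The libraries held 163405630 and 135436576 unique molecular identifiers (UMIs, each standing for 1 captured RNA molecule). Barcodes with at least 2000 UMIs and at most 10% mitochondrial UMIs numbered 6220 and 5149, and 5910 and 4937 cells were kept after doublet removal. Rbpj stood at 46.7 and 47.3 UMIs per 1000000 (CPM) over all kept cells, and counts from 3′ ends do not show whether an internal part of the gene was deleted. Xist stood at 1169 CPM in replicate 1 and 0.187 in replicate 2. Of the barcodes within the UMI and mitochondrial limits, before doublet removal, 6 occurred in both libraries.

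Cells were clustered and named from marker lists without the use of the 10 genes, and names carry the ending "-like". The nephron progenitor-like class held 1140 and 1158 cells and had 6 of its 8 markers in at least 10% of cells. A separate assignment of each cell by its own detected markers placed 56.1% and 64.9% of these cells in the same class, so its borders are loose. For early nephron-like cells (719 and 673) those shares were 46.5% and 55.0%, and for loop of Henle-like cells (211 and 200) 48.3% and 48.5%. Among podocyte-like cells they were 99.8% and 99.7%. The set of 10 is not one of progenitor-restricted genes in these libraries, since Pax8 and Lhx1 were higher in several later classes.

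**Figure D1:**
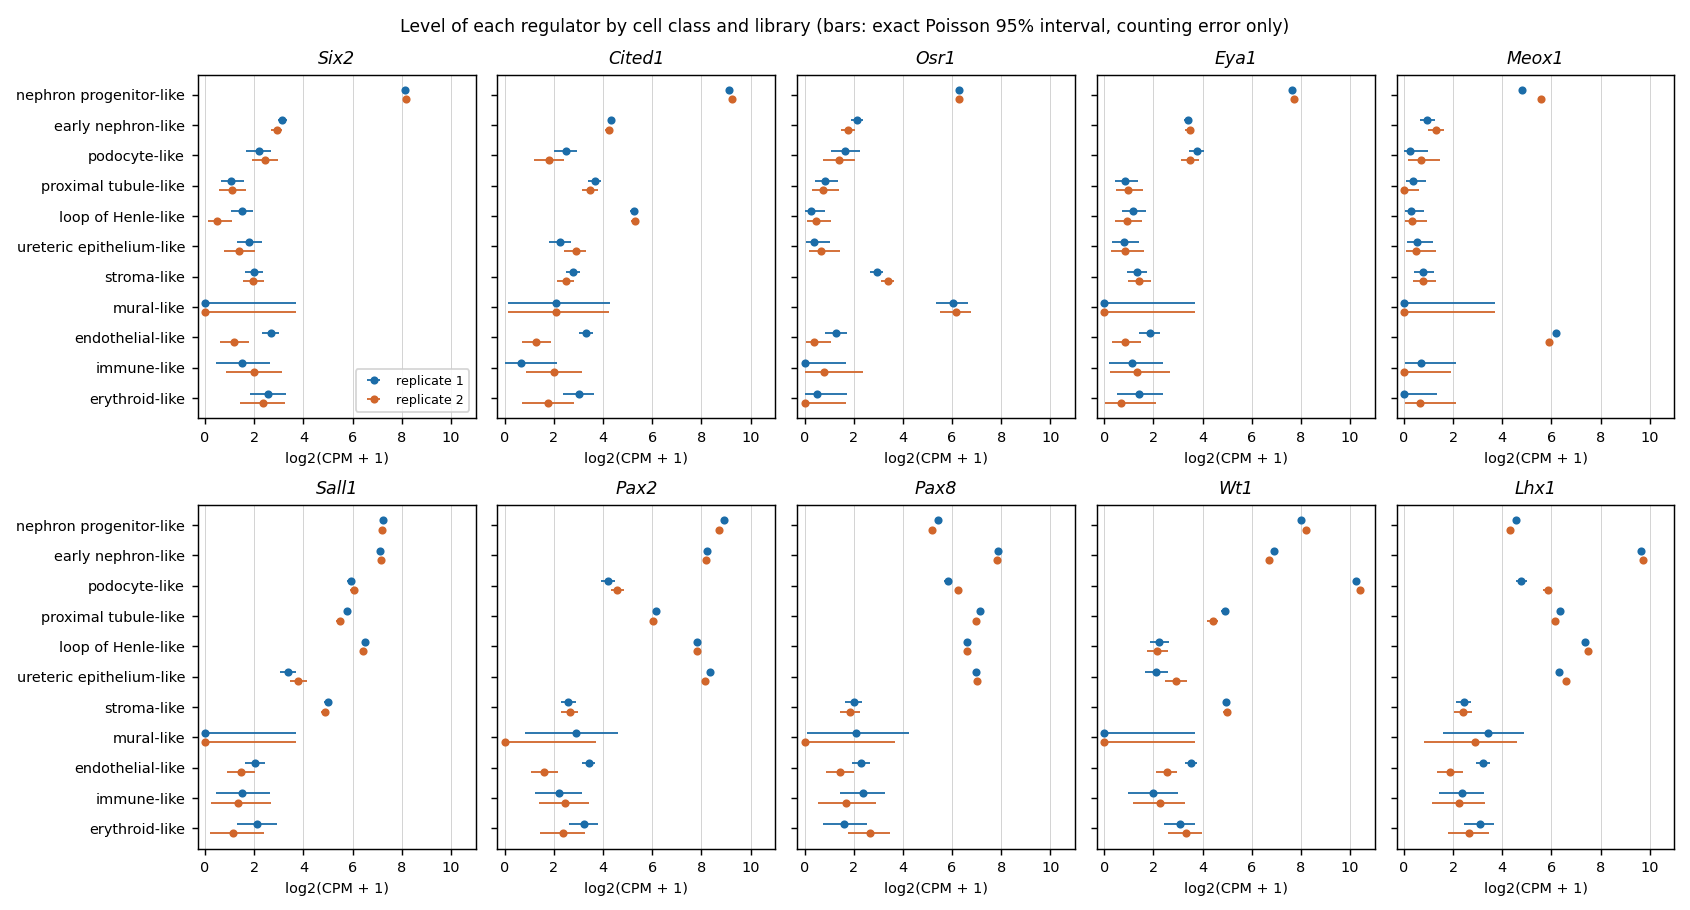
Level of each of the 10 genes as log2(CPM + 1) in 11 cell classes. Each point is 1 library and each bar the exact Poisson 95% interval, which covers counting error only. Six2, Cited1 and Eya1 are highest in the progenitor-like row, Wt1 in the podocyte-like row, Lhx1 and Pax8 in the early nephron-like row, and Meox1 in the endothelial-like row.

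Six2 (ENSMUSG00000024134, chr17:85662736-85688254) encodes the homeodomain factor that keeps cap cells from differentiating. In progenitor-like cells it stood at 283 CPM in replicate 1 and 290.5 in replicate 2, and in early nephron-like cells at 7.79 and 6.55. The groups lay far apart in both libraries. Every other class in the fit was at or below 5.38 CPM. Erythroid-like cells, which should lack the gene and serve here as a gauge of free RNA, stood at 4.95 and 4.15 CPM from 12 and 7 UMIs. In the fitted classes outside the nephron lineage the CPM was thus near or below that of erythroid-like cells. Those cells were shallower, and erythroid markers made up 760300 and 761500 CPM in them, so equal CPM does not show equal free RNA. Free RNA in barcodes with at most 99 UMIs held Six2 at 49.5 and 48.5 CPM. Its share within each class was not estimated.

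Cited1 (ENSMUSG00000051159, chrX:102247378-102252181), a transcriptional co-regulator without a DNA-binding domain, is a marker of the least committed cap cells. The gene lies on the X chromosome. It was counted at 557.8 and 607 CPM in progenitor-like cells and at 19.2 and 17.9 in early nephron-like cells. The next class was loop of Henle-like, at 36.8 and 38.4 CPM from 346 and 298 UMIs. That is 0.0647 of the progenitor-like level (95% counting interval 0.0597 to 0.0699), and lies above the 7.02 and 2.37 CPM of erythroid-like cells. After thinning each cell to 4600 UMIs, 16.0% and 10.9% of loop of Henle-like cells had a Cited1 UMI, against 1.74% and 1.18% of erythroid-like cells. The median depths before thinning were 19446 and 17332.5 UMIs in loop of Henle-like and 4370.5 and 4461 in erythroid-like cells.

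Eya1 (ENSMUSG00000025932, chr1:14168953-14311035) encodes a protein phosphatase and co-activator that works with Six2 and its relatives. Its progenitor-like level was 198.7 and 208.6 CPM, followed by podocyte-like cells at 12.6 and 10.3 and early nephron-like cells at 9.63 and 10.1. The 95% counting intervals of these lower classes overlapped. Their counts of 71 and 51 UMIs and of 240 and 197 UMIs stood above the erythroid-like 1.65 and 0.593 CPM. In ureteric epithelium-like cells only 9 UMIs were counted, 0.00371 of the progenitor-like level (0.00170 to 0.00705).

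Osr1 (ENSMUSG00000048387, chr12:9574442-9581500), a zinc-finger factor of the early intermediate mesoderm, was at 76.9 and 77.2 CPM in progenitor-like cells and 3.37 and 2.41 in early nephron-like cells. The mural-like class, smooth muscle and renin-type cells, reached almost the same level, 65.1 and 71.2 CPM. It held only 32 and 27 cells with 20 and 22 Osr1 UMIs, a ratio to progenitor-like cells of 0.885 whose interval (0.637 to 1.20) spans equality. In replicate 2 of this class the summed hemoglobin and other erythroid markers stood at 8993 CPM against 257.2 in replicate 1, and their part in the level was not tested. Stroma-like cells as a whole stood at 6.66 and 9.45 CPM. Of the 85 and 91 UMIs behind these values, 70 and 76 came from cluster 28, whose leading genes include Dlk1, Clec3b, Postn and Dcn and which held 66 and 46 cells. Osr1 in that cluster stood at 126.2 and 169.6 CPM, above the progenitor-like level in both libraries.

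Meox1 (ENSMUSG00000001493, chr11:101877510-101894354), a homeobox gene first known from somites, marks cap cells. Among the 10 genes it differed most between the libraries in progenitor-like cells. It stood there at 26.5 CPM in replicate 1 and 46.4 in replicate 2, a ratio of 0.572 (95% counting interval 0.520 to 0.629). The other 9 genes had ratios between 0.854 for Wt1 and 1.20 for Pax8 in the same cells. The highest level of Meox1 was not in the nephron lineage but in endothelial-like cells, at 72.5 and 58.9 CPM from 728 and 378 UMIs, 1.89 times the progenitor-like level (1.75 to 2.03). There the libraries lay in the opposite order.

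Within the endothelial-like class Meox1 was uneven. Cluster 2, led by Plvap and Rgcc, stood at 91.9 and 64.1 CPM, and cluster 10, led by Fam167b and Fabp4, at 99.6 and 79.9. Cluster 24, with Gpihbp1 and Ehd3 in front, stood at 33.9 and 17.5. Cluster 4, with the arterial genes Gja4, Gja5 and Sox17 among its leading genes, had 0 and 1 UMI among 81 and 49 cells. After thinning, 23.9% and 20.7% of endothelial-like cells had a Meox1 UMI, against 9.30% and 14.7% of progenitor-like cells, and none of the 230 and 169 erythroid-like cells deep enough, which allows a share of cells with a UMI at this depth of up to 1.30% and 1.78%. Before thinning, 1 Meox1 UMI was counted in erythroid-like cells. The other 9 genes reached at most 10.6 and 4.83 CPM in endothelial-like cells.

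The comparison of early nephron-like with progenitor-like cells asked which of the 10 genes separate forming nephrons from the cap. The early nephron-like class was mixed: 449 of its cells lay in cluster 21, with Wnt4 and Lhx1os in front, 378 in cluster 0, led by the distal genes Sim2 and Irx1, and 565 in cluster 3, led by Osr2. In cluster 3, 46.4% of gated cells were gated as proximal tubule and 43.6% as early nephron. Most of the class was therefore made up of segment precursors. By edgeR's quasi-likelihood test on UMIs summed per class and library, with Benjamini-Hochberg adjustment over 15484 genes and a threshold of 0.05, 9 of the 10 differed, 2 higher and 7 lower. Over all genes tested 47.6% were called, 22.3% higher and 25.3% lower, so the count alone is no mark of these genes. The differences were large, however: 7 of 10 passed the threshold at 4-fold or more, against 10.8% of all genes, and the median log2 difference was -2.99 against -0.06 over all genes. Classes were built from the same cells, though without the 10 genes, and this makes the p-values too small.

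The 5 cap genes were lower together. Six2 differed by -5.48 on the log2 scale (SE 0.17, adjusted p = 6.92e-18 by edgeR's test), Cited1 by -5.13 (SE 0.20), Osr1 by -4.86 (SE 0.16), Eya1 by -4.52 (SE 0.12) and Meox1 by -5.08 (SE 0.25). All were lower in both libraries. Where cells were assigned one by one from their markers, the differences of Six2 and Eya1 shrank to -3.93 and -3.02, still called. That of Osr1 had the widest range of the 5, from -6.75 with the 10 genes in the clustering to -3.74 at Leiden resolution 2. The sizes therefore depend on where the class border runs, while the direction of these 5 was the same under every alternative run.

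Pax8 and Lhx1 went the other way. Pax8 (ENSMUSG00000026976, chr2:24420551-24475599), a paired-box factor needed together with Pax2 for nephron formation, rose from 42.5 and 35.3 CPM to 234.5 and 229.5, a log2 difference of 2.42 (SE 0.12, adjusted p = 1.78e-14 by edgeR's test). Lhx1 (ENSMUSG00000018698, chr11:84517975-84525534), a LIM-homeodomain factor of the renal vesicle, rose from 22.5 and 18.9 CPM to 794.9 and 842.4, a log2 difference of 5.14 (SE 0.20, adjusted p = 1.18e-16 by edgeR's test). Over the alternatives this difference ran from 5.14, the value given, to 6.86. Without the progenitor-like cluster that had Wnt4 among its leading genes, the Lhx1 difference became 6.19. That cluster (number 5) held 413 of the 616 progenitor-like Lhx1 UMIs in replicate 1 and 193 of 437 in replicate 2.

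Sall1, Pax2 and Wt1 had the smallest differences between these classes. Sall1 (ENSMUSG00000031665, chr8:89027242-89044162), a zinc-finger factor needed for the cap to attract the ureteric bud, was at 148.3 and 144.2 CPM in progenitor-like and 139 and 143 in early nephron-like cells. Its log2 difference of -0.21 (SE 0.09) missed the threshold (adjusted p = 0.0758 by edgeR's test). It came out at 0.30 and past the threshold (adjusted p = 0.0094) where the 10 genes were allowed into the clustering, and at -0.26 (adjusted p = 0.026) without cluster 5, so no direction is given for it.

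Pax2 (ENSMUSG00000004231, chr19:44746601-44838269), a paired-box factor of cap and ureteric bud, fell from 486.7 and 417.3 CPM to 294.6 and 287.6. The log2 difference was -0.78 (SE 0.14, adjusted p = 6.56e-05 by edgeR's test), and with DESeq2 in place of edgeR it was -0.72 and no longer called (adjusted p = 0.11). Wt1 (ENSMUSG00000016458, chr2:105126529-105173614), a zinc-finger factor of cap and podocyte, fell from 252.9 and 296.3 CPM to 118.8 and 103.6, by 1.46 on the log2 scale (SE 0.14, adjusted p = 5.57e-09 by edgeR's test). The low Wt1 lay in clusters 0 and 3, at 1.87 and 4.77 CPM and at 63.1 and 56.3, while cluster 21 stood at 264.7 and 231.5. Over the alternatives its difference ranged from -2.74 with the 10 genes in the clustering to -0.21 at a mitochondrial limit of 5%, where it was not called (adjusted p = 0.18).

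**Figure D2:**
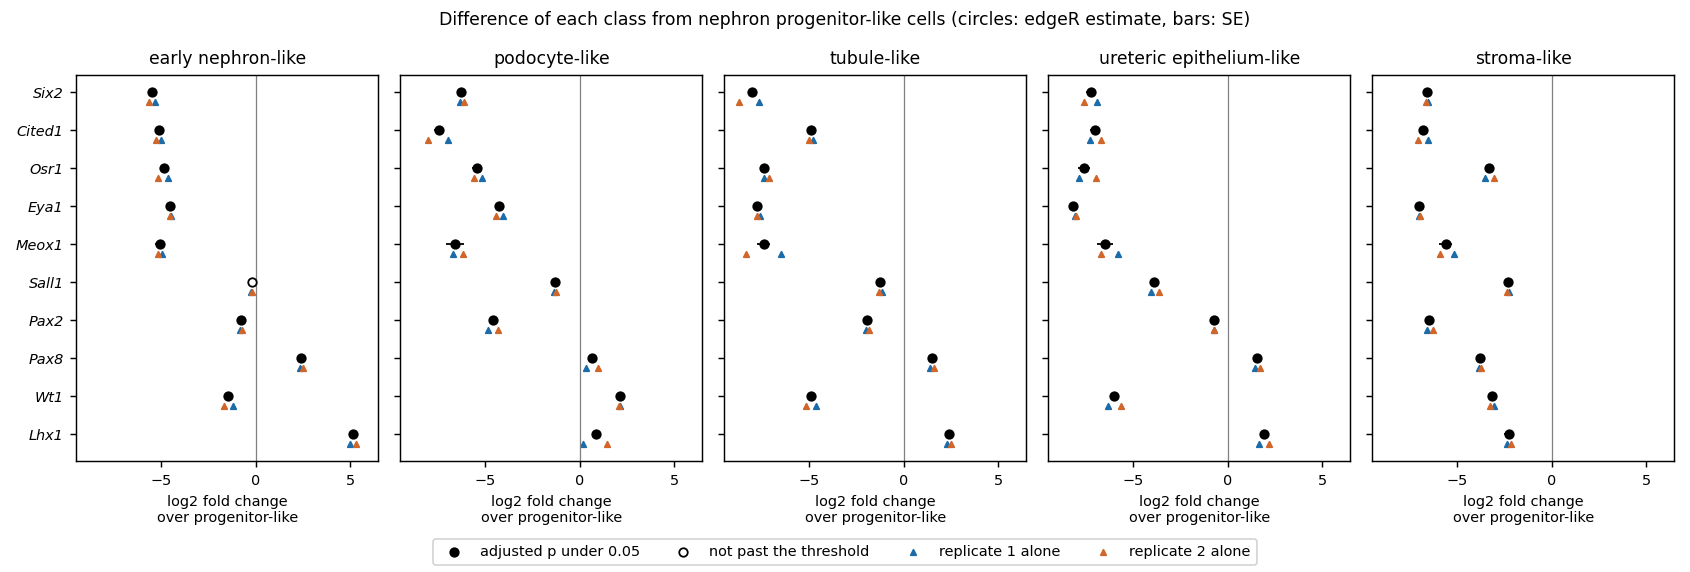
Log2 fold change of each gene in 5 comparisons with progenitor-like cells. Circles are edgeR estimates with SE (filled where the adjusted p was under 0.05), and triangles are the log2 ratio in each library alone. Six2, Cited1, Osr1, Eya1 and Meox1 lie left of 0 in all 5 panels, Lhx1 and Pax8 lie right of 0 in 4, and Sall1 in early nephron-like cells is the only open circle.

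Clustering the progenitor-like and early nephron-like cells again, without the 10 genes, gave 8 sub-clusters in which the genes did not change at the same place. Sub-cluster 5 (539 and 657 cells), with Rspo3 and the cap marker Crym in front, had Cited1 at 841.9 and 798.2 CPM, Six2 at 318.1 and 312.4, Meox1 at 41.1 and 63.2 and Lhx1 at 3.37 and 4.77. Sub-cluster 3 (184 and 131 cells), led by Fam132a and Col9a1, had Wnt4, a signal for the turn to epithelium, at 863.9 and 823.2 CPM against 52.8 and 38.0 in sub-cluster 5. There Cited1 stood at 36.9 and 29.1 CPM and Meox1 at 1.96 and 2.01. Both were lowest here among the sub-clusters made up mostly of progenitor-like cells (3, 5, 6 and 7).

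In the same sub-cluster 3 the other cap genes were retained to a larger extent. Six2 stood at 130.4 and 136.7 CPM, Osr1 at 58.5 and 55.8 against 85.6 and 79.1 in sub-cluster 5, and Eya1 at 180.4 and 195 against 221.3 and 222.7. Pax2 was at its highest of all sub-clusters, 590.1 and 542.3 CPM. Lhx1 stood at 7.19 and 10.1 CPM, above sub-cluster 5 in both libraries. Erythroid-like cells had it at 6.38 ± 1.48 CPM (SD, n = 2). The level of replicate 1 here and those of sub-cluster 5 therefore cannot be told from free RNA. Pax8 stood at 28.4 and 40.2 CPM, against 27.7 and 19.4 in sub-cluster 5. In both libraries, then, these Wnt4-rich cells had low Cited1 and Meox1 beside abundant Six2, Eya1 and Pax2, and had little Lhx1.

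Sub-cluster 4 (235 and 212 cells, of which 337 in all had been named early nephron-like and 110 progenitor-like) had Wnt4 at a like level, 1112 and 860.9 CPM, with Cldn5 and Pmp22 as its leading genes. Here Lhx1 stood at 1148 and 1101 CPM and Pax8 at 348.3 and 316.7, the highest of any sub-cluster. Six2 was at 19.2 ± 0.339 CPM (SD, n = 2), Eya1 at 29.4 and 41.1 and Osr1 at 12.6 and 12.0. Wt1, at 339 and 355.3 CPM, was above its level in sub-cluster 5 (241.3 and 280.8) in both libraries.

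The remaining early nephron-like sub-clusters parted on Wt1 and Pax2. Sub-cluster 0, distal precursor-like by Irx1, Irx2 and Sim2, had Pax2 at 411.7 and 442.2 CPM and Wt1 at 7.35 and 7.53. Sub-clusters 2 and 1, both proximal precursor-like, had Pax2 at 152.4 and 142 and at 89.1 and 72.3, and Wt1 at 77.4 and 71.9 and at 27.0 and 34.3. Lhx1 was at 745.3 and 875.2 CPM in the distal and between 505.7 and 570 in the proximal sub-clusters. Sall1 stayed between 105 and 167.1 CPM in all 8 sub-clusters, the smallest ratio of highest to lowest among the 10 genes.

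Sub-clusters 6 and 7 were mostly progenitor-like cells with mitotic genes (Cenpf, Cenpe) and histone genes among their leading genes. Top2a, a gene of dividing cells, stood at 594.7 and 457.4 CPM and at 735.5 and 641.8 in them. It was as high in sub-cluster 4, at 660.8 and 741.2, and in sub-clusters 0 and 1, against 35.0 and 23.6 in sub-cluster 3 and 13.1 and 9.26 in sub-cluster 5. The part of division in the contrasts between sub-clusters was not tested. Hemoglobin genes also led sub-cluster 6, where they made up 0.301% and 0.374% of UMIs against 0.0209% and 0.0124% in sub-cluster 5, and their part in the levels was not tested. Cited1 was lower in both than in sub-cluster 5, at 526.4 and 597 CPM and at 310.3 and 458.4. Six2 stood at 321.2 and 337.3 in sub-cluster 6 and at 229.7 and 268.9 in sub-cluster 7. These sub-clusters come from the same cells as the levels, so their differences are described without a test.

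**Figure D3:**
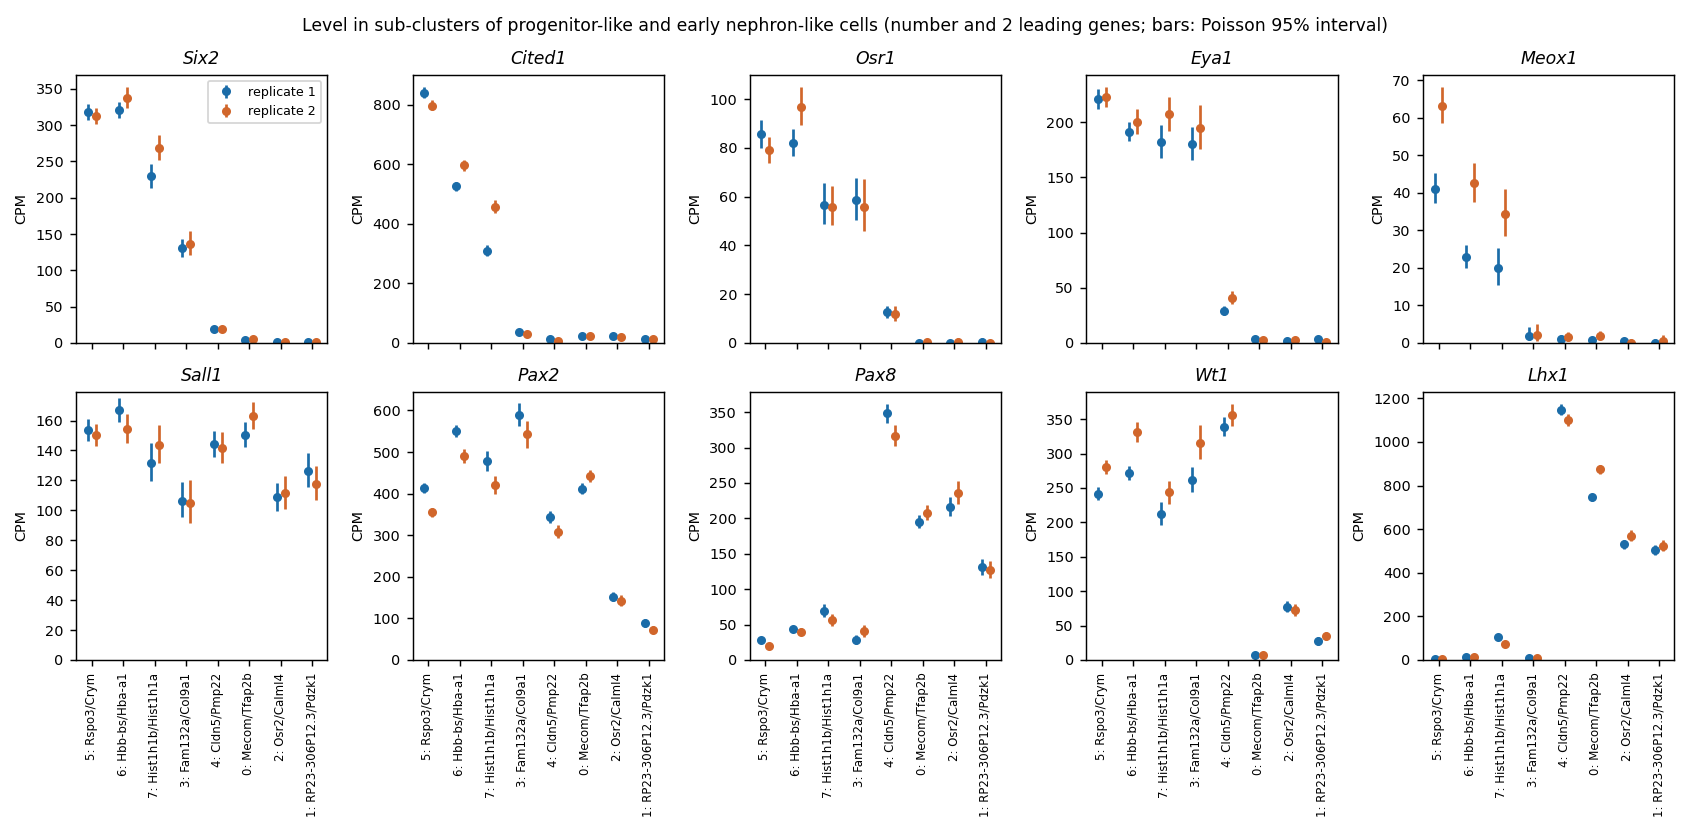
CPM of each gene in 8 sub-clusters of progenitor-like and early nephron-like cells, each named by its number and 2 leading genes; points are libraries and bars exact Poisson 95% intervals. The left-to-right order was set by hand and is not a measured time course. Cited1 and Meox1 are low from sub-cluster 3 onwards, Six2, Osr1 and Eya1 from sub-cluster 4, and Lhx1 and Pax8 are high from sub-cluster 4.

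Single progenitor-like cells carried several of the genes at the same time. With each cell thinned to 4600 UMIs, the median was 4 of the 10 genes per cell in both libraries, and 42.4% and 43.1% of cells had 5 or more. Before thinning, 86.7% of progenitor-like cells of replicate 1 had a Six2 UMI (exact binomial 95% interval 84.6% to 88.6%), and after it 59.6% and 63.3% did. Six2 and Cited1 were seen together in 472 of 1107 cells and 529 of 1125, a mean of 44.8% ± 3.10 (SD, n = 2). Cells with a Six2 UMI had a Cited1 UMI in 72.9% ± 1.97 of cases and cells without one in 51.0% ± 0.933.

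Lhx1 ran against both. Of progenitor-like cells with a Six2 UMI 2.64% ± 0.554 (SD, n = 2) had a Lhx1 UMI, and of those without 9.17% ± 0.639. For Cited1 the shares were 2.10% ± 0.856 and 10.7% ± 0.226, and for Pax8 the pattern was turned round, with Lhx1 in 20.7% ± 3.06 of cells with a Pax8 UMI and 3.02% ± 1.14 of those without. Erythroid-like cells had a Lhx1 UMI in 3.04% and 1.78% of cases, so the lower of these shares cannot be told from free RNA. Meox1 followed Cited1, being seen in 16.7% ± 4.46 of Cited1-positive and 3.44% ± 2.06 of Cited1-negative cells. Cells counted as negative need not lack the RNA. Before thinning 75.4% of progenitor-like cells had a Cited1 UMI, and after it 64.5% did (means of the libraries). Wt1 and Pax2 differed less. Wt1 was seen in 68.7% ± 1.99 of cells with and 64.6% ± 3.45 of cells without a Six2 UMI. Pax2 was seen in 76.7% ± 4.94 of cells with and 77.3% ± 0.446 of cells without a Six2 UMI, and in 74.8% ± 3.87 of Cited1-positive and 80.7% ± 1.80 of Cited1-negative cells, lower in the positive cells of both libraries.

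**Figure D4:**
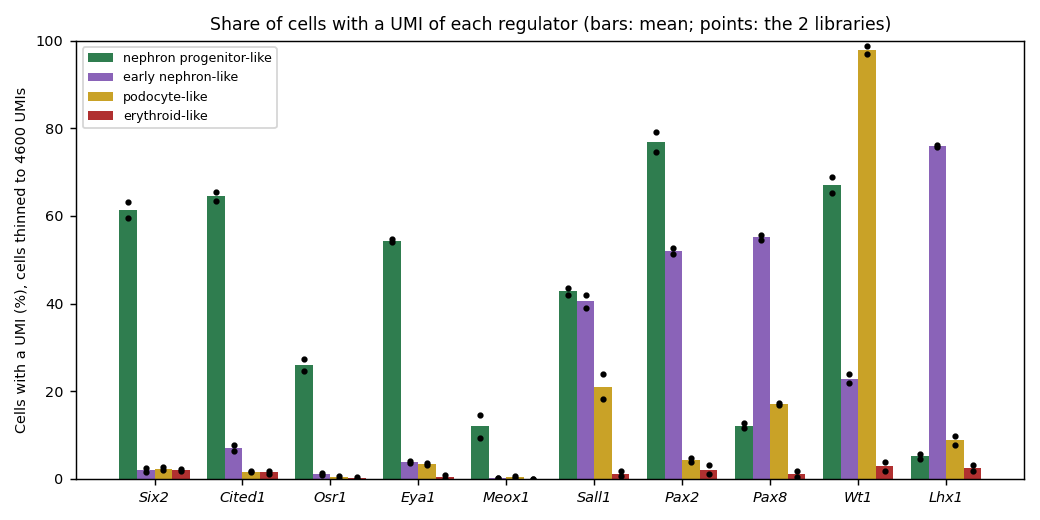
Share of cells with at least 1 UMI of each gene after thinning every cell to 4600 UMIs, in 4 classes; bars are means and points the 2 libraries. Six2 falls from 61.5% of progenitor-like to 2.02% of early nephron-like cells, at the level of erythroid-like cells, while Lhx1 goes from 5.16% to 76.0%.

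Podocyte-like cells (450 and 314) were compared with progenitor-like cells next. All 10 genes differed by edgeR's test, against 60.7% of all genes, with 3 higher and 7 lower (30.2% and 30.6% of all genes). By 4-fold or more 7 differed, against 18.1% of all genes. Wt1, which stays on in podocytes and is needed for their function, stood at 1196 and 1366 CPM, a log2 difference of 2.11 (SE 0.14, adjusted p = 4.06e-12 by edgeR's test), and 98.8% and 97.0% of thinned cells had a UMI. Pax8 was at 56.0 and 75.5 CPM and Lhx1 at 26.4 and 56.3, and the libraries differed in Lhx1, with log2 ratios to progenitor-like cells of 0.15 and 1.44. The fitted log2 differences of 0.65 for Pax8 (SE 0.13) and 0.86 for Lhx1 (SE 0.22) were no longer called at a mitochondrial limit of 5%, at 0.18 and 0.39 (adjusted p = 0.25 and 0.2 by edgeR's test). At a limit of 20% the call for Pax8 was also lost, at 0.19 (adjusted p = 0.31). Other alternatives gave larger differences, up to 1.65 for Pax8 at Leiden resolution 0.5 and 2.56 for Lhx1 at a minimum of 4000 UMIs, so the sizes are loose. Pax2 was at 17.6 and 22.9 CPM, a difference of -4.60 (SE 0.19) that ran from -4.94 to -2.53 over the alternatives, the smallest at Leiden resolution 0.5, and Sall1 kept 60.3 and 65.6 CPM.

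Pax8 and Lhx1 were higher in the smaller of the podocyte-like clusters. Cluster 9 (80 and 63 cells), led by Pcp4, R3hdml and Ndnf, had Pax8 at 120.6 and 141.5 CPM and Lhx1 at 48.9 and 100.6. Cluster 14 (370 and 251 cells), with Nphs1, a gene of the slit diaphragm, among its leading genes, had Pax8 at 30.1 and 29.5, below the progenitor-like level, and Lhx1 at 17.4 and 25.4. Wt1 was high in both, at 1402 and 1664 CPM and at 1114 and 1159.

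In tubule-like cells, taken as the mean of proximal tubule-like and loop of Henle-like cells, all 10 genes differed from progenitor-like cells by edgeR's test, against 67.8% of all genes. By 4-fold or more 7 differed, against 18.0%. No separate distal tubule class was formed, and some distal markers lay in the loop of Henle-like cluster. Pax8 was higher by 1.49 (SE 0.11) and Lhx1 by 2.39 (SE 0.17) on the log2 scale, and the other 8 were lower, against 32.9% of all genes higher and 34.8% lower. The Lhx1 difference ran from 2.28 with cells gated one by one to 4.15 at a mitochondrial limit of 5%. The mean held other classes there, with a distal tubule-like class added in the first and proximal tubule-like cells alone in the second. Pax2 differed between the segments, at 226.2 and 222.5 CPM in loop of Henle-like and 70.4 and 64.9 in proximal tubule-like cells. Wt1 lay the other way round, at 3.72 and 3.48 CPM in loop of Henle-like cells, below erythroid-like cells (7.43 and 8.89), and at 29.3 and 20.2 in proximal tubule-like cells. Six2, Osr1, Eya1 and Meox1 were counted with 3 to 20 UMIs per class over both libraries and stood no higher than 1.81 CPM. Meox1 in proximal tubule-like cells rested on 3 UMIs, 0.00488 of the progenitor-like level (0.00101 to 0.0143).

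Ureteric epithelium-like cells form the collecting system and derive from the bud, not the cap. All 10 genes differed by edgeR's test, against 56.8% of all genes, 2 higher and 8 lower (28.8% and 28.0% of all genes). By 4-fold or more 7 differed, against 16.8%. Pax2 came close to its progenitor-like level, at 323.7 and 279.6 CPM, a log2 difference of -0.72 (SE 0.15, adjusted p = 0.000164 by edgeR's test) that DESeq2 did not call (adjusted p = 0.12). Pax8 was at 124.1 and 127.2 CPM, higher by 1.55 (SE 0.13), and Lhx1 at 77.4 and 96.2, higher by 1.91 (SE 0.20). Sall1 was low, at 9.43 and 12.9 CPM, a difference of -3.88 (SE 0.14, adjusted p = 4.30e-17 by edgeR's test). Lhx1 was higher in cluster 30 with the tip genes Ret and Wnt11, at 127.7 and 142.3 CPM, than in cluster 17 with Aqp2, at 43.6 and 73.9.

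Stroma-like cells, the lineage in which the deletion was directed, had lower levels of all 10 genes by edgeR's test, each by at least 4-fold. With cells gated one by one the differences of Six2 and Cited1, -6.63 and -6.81 here, were -3.61 and -3.33. Over all genes 56.7% were called, 28.1% higher and 28.7% lower, and 13.9% by 4-fold or more. Lhx1, the closest, was at 4.39 and 4.26 CPM, below the 7.43 and 5.33 of erythroid-like cells, lower by 2.27 (SE 0.28), and without doublet removal the difference was -0.25 and not called (adjusted p = 0.48 by edgeR's test). Sall1 and Wt1 were the only ones clearly above the erythroid-like background besides Osr1. Sall1 stood at 30.9 and 28.7 CPM and was uneven, with 71.8 and 55.7 in cluster 22 (Mgp, Reln, Gdnf, Ntn1) against 8.02 and 7.11 in cluster 16 (Igfbp3, Lox). Wt1 stood at 30.3 and 30.9 CPM, with 44.5 and 43.6 in cluster 22 and 7.58 and 6.32 in cluster 16.

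A list of 29 other regulators and partners (paralogs of the 10 genes, Hox genes and factors of the same pathway) was read from the same fit, and 28 passed the filter on low counts. In early nephron-like cells 10 were higher, 13 lower and 5 not called, beside 22.3% higher and 25.3% lower over all genes. Large differences were seen in Emx2 and Sall3, a paralog of Sall1: Emx2 by 6.54, from 2.23 and 2.03 CPM to 223.9 and 221.8, and Sall3 by 6.32. In podocyte-like cells 8 were higher and 14 lower, beside 30.2% and 30.6% of all genes. Meox2, a paralog of Meox1, was at 38.7 and 31.8 CPM in progenitor-like cells and had 1 UMI in podocyte-like cells, a ratio of 0.00266 (6.74e-05 to 0.0148). Itga8, an integrin subunit of the mesenchyme needed for bud outgrowth, was lower by 4.94 and Six4 by 4.17.

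In tubule-like cells 8 of the list were higher and 16 lower, beside 32.9% and 34.8% of all genes, so the higher count is near the share over all genes. Itga8 was lower by 8.34 and Meox2 by 7.23 on the log2 scale. In ureteric epithelium-like cells 9 were higher and 15 lower, beside 28.8% and 28.0% of all genes. There Cited4, a paralog of Cited1, was at 133.2 and 124.4 CPM against 0.952 and 1.12 in progenitor-like cells, while Meox2 had 1 UMI and Eya4 had 3, ratios of 0.00236 (5.98e-05 to 0.0132) and 0.00816 (0.00168 to 0.0239). In stroma-like cells 4 were higher and 16 lower, beside 28.1% and 28.7% of all genes, with Bmp7 lower by 3.20 and Eya4 by 2.95.

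The genes whose levels over the 11 classes ran most like each of the 10 were sought among 9956 genes, as a description over class means that share libraries and depth. Six2 and Eya1 were each other's nearest (r = 0.94), followed by Pnmt for Six2 (0.94) and by Spock2, itself a progenitor marker used for naming, for Eya1 (0.91). Pax8 ran closest to Dab1 (0.99) and Plch1 (0.98), and Pax2 to Cldn9 (0.96) and Six4 (0.94). Cited1 ran with Shisa2 (0.89) and Klhdc8a (0.88), and Osr1 with Fat3 (0.94) and Des (0.92), a muscle filament gene. Meox1 ran with Mapk12 (0.91) and Lrrc3b (0.85), and Sall1 with Cecr2 (0.92) and A730017C20Rik (0.91).

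Wt1 and Lhx1 each ran closest to a neighbouring non-coding RNA. Wt1os (chr2:105076538-105126510) followed Wt1 with r = 0.96, ahead of Slc26a7 (0.91), and stood at 167.1 and 206.1 CPM in podocyte-like cells. Lhx1os (chr11:84525660-84535831) followed Lhx1 with r = 0.97, ahead of Hsd17b14 (0.92), and stood at 176.1 and 197.4 CPM in early nephron-like cells. In the RefSeq table of GRCm38.p6, from which the coordinates are taken, neither overlaps its partner. Whether counting used the strand was not given in the sources used here, so reads of the partners cannot be told apart with certainty near their starts.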

How the data were processed

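The deposited matrices hold raw counts of UMIs per gene and barcode, unfiltered, from 10x libraries of 3′ cDNA ends per the labels' protocols. Per the submitters' processing notes the authors used Cell Ranger 6.0.1 and mm10, while the file headers name version 4. The annotation was not given in the sources used here. Levels are UMIs summed per class and library over all UMIs of that class (CPM, computed here). The 10 genes, marker lists, the list of 29 regulators and the tests were chosen with earlier results of these data known.

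Doublets were scored with Scrublet and the highest scores removed (310 and 212 barcodes, 4.98% and 4.12%, a rate that grows with the number of cells); its automatic threshold would have removed 63 and 22. Cells were clustered with scanpy 1.11.5 (2000 variable genes without the 10, 30 components, 15 neighbours, Leiden resolution 1; 0.5 for sub-clusters), without correction between libraries. Clusters were named from 14 lists by mean scaled marker level (at least 0.3, at least 20 cells, 3 markers in 10% of cells, no other class leading among the 10 leading genes). A name was also withheld where under 1/3 of the cluster's gated cells were of that class. This last rule was added after the clusters were seen, as the last of 3 versions tried, before any fit was made. It left clusters 6, 8 and 19 unnamed, and a fit without it is among the alternatives. The progenitor-like class is the same with and without it.

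Summed counts of 11 classes with at least 20 cells per library (22 columns, 10 residual degrees of freedom) were fitted in edgeR 4.0.16 with TMM, filterByExpr and library as a block. Neutrophil-like cells (39 and 4) were left out. On simulated data for the early nephron-like comparison (15275 genes) the test recovered 81 of 100 genes changed by 1 on the log2 scale and 85 of 99 changed by 2, with 10 false calls among 15076. Intervals are 95%, exact Poisson, binomial or conditional, and cover counting error only; floors use 3 counts. Named genes were all 10, the 3 largest called differences per comparison from the list of 29 with the same sign in both libraries, and the 2 nearest genes by Pearson r of log2(CPM + 1), among genes with at least 20 CPM in a class; some genes that the rule names are not reported here. Alternatives were other size factors, DESeq2 1.42.0, no filter, no block, other cell filters, no doublet removal, other resolutions, clustering with the 10 genes, gating cell by cell, thinning to 2000 UMIs, leaving out each replicate, and 3 class changes added after the data were seen. With 2 libraries, leaving out 1 gives a value and no test.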

Additional observations from a re-analysis of the deposited data

How the results depend on the processing

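All counts of called genes stayed within 1.5 times the value given. Of the 10 genes, between 8 and 10 were called in each comparison under every alternative that could be fitted; the ureteric comparison could not be fitted at a mitochondrial limit of 5%, where that class did not enter the fit. Of the list of 29, the counts ran from 21 to 23 in early nephron-like, 20 to 25 in podocyte-like, 21 to 24 in tubule-like, 23 to 26 in ureteric epithelium-like and 15 to 21 in stroma-like cells. Of 750 refitted log2 differences, 736 kept their direction and side of the threshold, 9 lost and 1 gained the call, and 4 reversed, all 4 of Sall1 in early nephron-like cells (0.010 at 4000 UMIs, 0.088 at a mitochondrial limit of 5%, 0.10 at Leiden resolution 2, 0.30 with the 10 genes in the clustering). Beside the lost calls given above, Pax2 in early nephron-like cells was not called at Leiden resolution 2 (-0.33) or by cell gates (-0.34). The tubule mean included a distal tubule-like class under 5 alternatives and proximal tubule-like cells alone at a mitochondrial limit of 5%. Dropping the replicate block left 9, 10, 10, 10 and 10 genes called. Of 100 values from a single library none changed sign. Progenitor-like Lhx1 fell to 10.3 CPM without cluster 5. The share of cells with both Six2 and Cited1 was 23.2% when thinned to 2000 UMIs, since fewer molecules per cell are kept. At that depth progenitor-like cells had a median of 2 and 3 of the 10 genes, and 8.86% and 9.67% had 5 or more. A level at or below that of the same gene in erythroid-like cells, which reached 8.89 CPM for Wt1 and at most 0.413 for Osr1, cannot be told from free RNA. A level above it is not free of such RNA either. Barcodes with at most 99 UMIs held Cited1 at 88.1 and 102.2 CPM and Eya1 at 21.9 and 27.7, and the share of free RNA per class was not estimated.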

Other observations

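Cluster 19 (157 and 105 cells) was given no name and entered no comparison. Tagln, Hbegf and Ms4a2 lead it, and 48.5% of its gated cells were gated as podocyte. It had Wt1 at 583.7 and 781.6 CPM, Pax8 at 236.2 and 253.6, Pax2 at 208.2 and 220.6 and Lhx1 at 121.2 and 198.9, with Osr1 at 33.6 and 30.2. Cluster 8 (31 and 18 cells), led by Plau, Cryab and Krt19, had Pax8 at 395.5 and 321.6 CPM and Pax2 at 282.5 and 307.9, with Wt1 at 6 and 0 UMIs. Cluster 32, only 6 cells in each library and led by the mesothelial genes Slpi, Msln and Upk3b, had 18 and 19 Osr1 UMIs (194.6 and 274.4 CPM) and 10 and 13 Wt1 UMIs (108.1 and 187.7 CPM). In replicate 2, stroma-like cluster 28 had 28 Cited1 UMIs and in replicate 1 none.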
